A study of Mus musculus with 18 samples.

Results

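The genes that encode the machinery of oxidative phosphorylation were examined in mouse embryonic stem cells deprived of leucine or arginine. Members were the protein-coding genes present in both count tables whose GENCODE vM21 symbol named a subunit of respiratory complexes I to IV or of ATP synthase (complex V): symbols beginning with Nduf followed by a, b, c, s or v, Ndufab1, Sdha to Sdhd, Uqcr, Cox4 to Cox8 with a letter, Atp5, mt-Nd, mt-Co, mt-Cytb and mt-Atp. The Ndufaf assembly factors were left out, as were 12 name matches that are not protein-coding. This gave 99 gene identifiers (98 symbols) of the 55471 in the tables, of which 21974 are protein-coding. The nuclear genome held 86 of them, with 36 in complex I, 4 in complex II, 8 in complex III, 20 in complex IV (Ndufa4 and Ndufa4l2 were counted here), 17 in complex V and Atp5s, which is named after ATP synthase but is not one of its subunits. Mitochondrial DNA (mtDNA) held the other 13, with 7 in complex I, 1 in complex III, 3 in complex IV and 2 in complex V.

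The series is mRNA sequencing of E14 mouse embryonic stem cells, wild type (Wt) or deficient in GCN2 (Gcn), the product of Eif2ak4, a kinase activated by uncharged tRNA. The groups were Gcn cells without leucine for 3 h (Gcn Leu), Gcn cells without arginine for 3 h (Gcn Arg), Gcn cells in complete medium (Gcn Unstarved), and the same conditions in wild-type cells (Wt Leu, Wt Arg and Wt Unstarved), with 3 replicates each and 18 libraries in all. All cells, the unstarved ones included, were kept on gelatin with leukaemia inhibitory factor (LIF), grown in 15% serum and then placed for 3 h in SILAC medium with 5% dialyzed serum. The labels do not give the allele that removes GCN2, the number of clones, or whether replicates were separate cultures. The spread that p-values are set against may therefore be technical, and genotype and culture history cannot be told apart.

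Library totals ran from 14777012 to 38814785 counts, with a median of 26618853, and the 99 members took 3.06% to 4.08% of them. Eif2ak4 was at 4.03 to 6.37 CPM (counts relative to the library total, scaled by TMM) in the 9 Gcn libraries and at 27.0 to 33.4 CPM in the 9 Wt libraries. The 8 embryonic stem cell markers (Pou5f1, Nanog, Sox2, Zfp42, Esrrb, Klf4, Dppa5a and Tdgf1) summed to 6297 to 8926 CPM in every library, and the 6 fibroblast markers to 5.30 to 8.15 CPM in Gcn and 14.8 to 24.5 CPM in Wt libraries. Single markers changed with the groups (edgeR, adjusted p under 0.05). Of the 8 stem cell markers, 4 rose in Gcn Leu, 3 rose and 1 fell in Gcn Arg, 3 rose and 1 fell in Wt Leu, 2 rose and 1 fell in Wt Arg, and 3 were higher in Gcn Unstarved than in Wt Unstarved, among them Nanog at a mean of 559 CPM in Gcn Unstarved and 310 CPM in Wt Unstarved. The mesendoderm marker Eomes fell in all 4 starvations, Gata4 and Sox17 (endoderm) rose in Gcn Arg and Gata4 in Gcn Leu, and the neural marker Sox1 rose in Gcn Leu, Gcn Arg and Wt Arg. Of the 3 neural markers, 1 rose in Gcn Leu, 1 rose and 1 fell in Gcn Arg, 0 were called in Wt Leu and 2 rose in Wt Arg. In Gcn Unstarved 2 of the 3 were higher than in Wt Unstarved. Tubb3, the most abundant, averaged 154 CPM in Gcn Arg and 233 CPM in Gcn Unstarved. The 3 neural markers summed to 187 to 192 CPM in Gcn Arg and 248 to 263 CPM in Gcn Unstarved. Gm42418, which overlaps ribosomal RNA, took 2.57% ± 1.27 of counts in Gcn Unstarved and 0.621% ± 0.519 in Wt Unstarved (SD, n = 3 each). The part of these markers in the results was not tested. In the Gcn libraries numbered 1 and, to a smaller extent, the Wt starved libraries numbered 3, short transcripts stood low, which is described with the nuclear members.

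Oxidative phosphorylation passes electrons from NADH (complex I) and succinate (complex II) through ubiquinone, complex III and cytochrome c to oxygen at complex IV. Complexes I, III and IV pump protons, and ATP synthase uses the gradient to make ATP. Complex II is wholly nuclear encoded, whereas the other complexes join nuclear subunits, imported after translation in the cytosol, to core subunits made from the long polycistronic transcripts of mtDNA. Embryonic stem cells make much of their ATP by glycolysis, and the complexes turn over slowly. Protein was not measured here.

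The mt- members were more abundant in sum than the nuclear ones. The 86 nuclear members summed to 11321 to 15574 CPM per library and the 13 mt- members to 17612 to 28836 CPM. Almost all of the mt- sum came from 7 genes, since the other 6 held 0 to 5 counts per library together. The part of poly(A) selection in these levels was not tested. Per kilobase of transcript, mean levels over the 18 libraries were 5462 CPM for mt-Cytb, 5437 for mt-Co1, 3650 for mt-Nd1, 1346 for mt-Nd2, 1175 for mt-Nd5, 1017 for mt-Nd4 and 150 for mt-Nd6. The most abundant nuclear members by CPM in complexes V, IV, III and II were Atp5b (the catalytic beta subunit of ATP synthase), Cox4i1, Uqcrc1 (a core subunit of complex III) and Sdha (the flavoprotein that oxidises succinate). Per kilobase these stood at 1336, 1268, 213 and 66.1 CPM in that order. Atp5b and Cox4i1 thus lay between mt-Nd2 and mt-Nd5, Uqcrc1 above mt-Nd6 alone, and Sdha below all 7.

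The remaining 6 mt- genes, mt-Co2, mt-Co3, mt-Atp6, mt-Atp8, mt-Nd3 and mt-Nd4l, held 0 to 5 counts per library in sum and were not tested. For 5 of them, 98.0% (mt-Nd3) to 100% (mt-Co2) of the 43-base words of the gene, the length of one read, also occur in another annotated gene. The sequences below show the first 60 bases of mt-Co2 and of the nuclear copy Gm28661, both in the reading direction of the gene, on GRCm38. They lie at chrM:7013-7072 (+) and chr1:24615506-24615565 (-).
mt-Co2: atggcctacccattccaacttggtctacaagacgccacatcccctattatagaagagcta
Gm28661: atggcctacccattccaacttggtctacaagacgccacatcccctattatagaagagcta
The stretches differ at 0 positions, and the alignment over the whole gene was identical at 681 of 681 bases, so reads cannot be assigned to one of the genes by sequence. Gm28661 stood at 0.85 to 1.88 CPM. How reads with several matching places were counted is not given in the sources used here. These counts are not read as expression levels, and the part of shared sequence in them was not tested. mt-Atp8 differs in this count, with 0.62% of its words found in the annotated transcripts of other genes, but it overlaps mt-Atp6 over 21.1% of its length. Copies of mtDNA outside annotated transcripts were not searched, so mt-Atp8 is not shown to be unique in the genome.

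Sharing was partial for the measured genes and differed between them. It reached 62.4% of the words in mt-Nd4, 55.1% in mt-Co1, 10.5% in mt-Nd5, 9.54% in mt-Nd2 and 0.64% in mt-Cytb. No word of mt-Nd1 or mt-Nd6 occurred in the annotated transcripts of another gene. The part of sharing in the levels of mt-Co1 and mt-Nd4 was not tested.

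**Figure D1:**
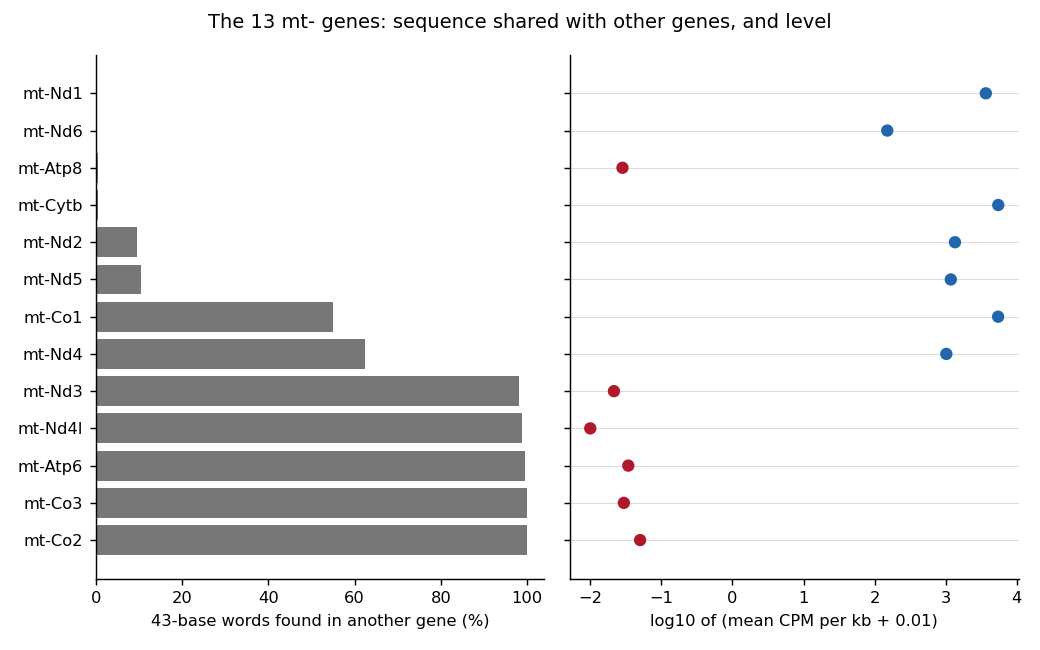
Left, percentage of the 43-base words of each of the 13 mt- genes found in another annotated gene; right, log10 of mean CPM per kilobase over 18 libraries plus 0.01, blue for the 7 genes that were tested and red for the 6 that held at most 5 counts per library in sum. Of the 6 red genes, 5 share 98.0% to 100% of their words and mt-Atp8 shares 0.62%.

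In wild-type cells, many nuclear members were lower by a small amount after arginine starvation. Of 82 nuclear members tested, 27 fell and 3 rose in Wt Arg against Wt Unstarved, and of 7 mt- members 1 fell (edgeR quasi-likelihood test, Benjamini-Hochberg adjusted p under 0.05 over 16140 genes). The share called lower was 31.5% of the 89 members, against 20.0% of all genes, and the share called higher was 3.37%, against 20.9% of all genes (40.9% of all genes were called in either direction). With the replicate number as a block, 46 members were called lower (against 25.2% of all genes) and 4 higher (against 24.9%). Without Wt Arg 1, 1 was called higher. The median log2 fold change was -0.20 over the nuclear members, with 71 of 82 below 0, -0.08 over the 7 mt- members and -0.01 over all genes. In bulk RNA, fewer cells that express a gene and less RNA per cell cannot be told apart.

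Falls were counted by complex. In complex I 13 of 36 nuclear members fell and 1 rose, and in complex II 1 of 4 fell and 1 rose. In complex III 3 of 8 fell and 1 rose, in complex IV 6 of 17 fell, and in complex V 4 of 16 fell. The 25.0% in II and in V lies near the 20.0% of all genes called lower. With the replicate block 18, 2, 5, 11 and 8 fell in complexes I to V, against 25.2% of all genes. Differences between complexes were not tested. Median changes were -0.20, -0.09, -0.19, -0.22 and -0.20 on the log2 scale in that order. The 3 nuclear members that rose, Uqcrc2, Ndufs1 and Sdha, all encode large core or catalytic subunits. Core subunits were also called lower, among them Uqcrc1 and Ndufs7.

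Cox6b2 had the largest change of all tested members in both starvations of Wt cells. It encodes the form of complex IV subunit VIb known from testis and averaged 18.9 CPM over the 18 libraries, against 136 CPM for the general form Cox6b1. Cox6b2 had 13.7, 13.6 and 12.3 CPM in Wt Leu, 14.4, 15.0 and 14.9 CPM in Wt Arg and 33.5, 26.0 and 23.6 CPM in Wt Unstarved. Every starved Wt library lay below every unstarved one. The fall was to 14.8 ± 0.354 CPM in Wt Arg, against 27.7 ± 5.15 CPM in Wt Unstarved (SD, n = 3 each; log2 fold change -0.91, SE 0.11, adjusted p = 5.47e-06 by edgeR). In Wt Leu the log2 fold change was -1.07, SE 0.11, adjusted p = 2.95e-06 (edgeR). Both calls held under all 18 alternatives run for each comparison. Cox6b1 also fell, but by less, with log2 fold changes of -0.26 in Wt Leu (adjusted p = 0.00968) and -0.23 in Wt Arg (adjusted p = 0.0134, both edgeR).

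The other members with the largest falls in Wt Arg were small accessory subunits. Ndufa5, on the matrix arm of complex I, had 39.2, 37.2 and 29.0 CPM in Wt Arg and 54.9, 44.2 and 46.2 CPM in Wt Unstarved (log2 fold change -0.46, SE 0.13, adjusted p = 0.0137, edgeR). Uqcrh, the hinge protein of complex III that contacts cytochrome c1, had 116, 128 and 108 CPM in Wt Arg and 161, 147 and 163 CPM in Wt Unstarved (log2 fold change -0.42, SE 0.07, adjusted p = 0.000235, edgeR). Ndufa8, a complex I subunit facing the intermembrane space, had 58.9, 54.0 and 56.5 CPM in Wt Arg and 78.2, 70.5 and 80.3 CPM in Wt Unstarved (log2 fold change -0.43, SE 0.07, adjusted p = 0.000128, edgeR). For these 3 genes the groups did not overlap, and the difference exceeded the spread within either group. Ndufb10 and Ndufa11, both in the membrane arm of complex I, changed by -0.38 and -0.37 on the log2 scale (adjusted p = 0.000214 and 0.00107, edgeR). Of these 5 genes, the call was lost only for Ndufa5, under 2 of 18 alternatives.

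Uqcrc2, the second core subunit of complex III, moved the other way with 212, 239 and 218 CPM in Wt Arg and 183, 184 and 178 CPM in Wt Unstarved (log2 fold change 0.30, SE 0.07, adjusted p = 0.0022, edgeR). Ndufs1, the iron-sulfur subunit that takes electrons from the NADH site of complex I, had 162, 162 and 159.8 CPM in Wt Arg and 147, 149 and 125 CPM in Wt Unstarved (log2 fold change 0.20, SE 0.07, adjusted p = 0.0261, edgeR). Its level in Wt Arg lay above every unstarved library. Sdha had 205, 189 and 208 CPM in Wt Arg and 185, 171 and 176 CPM in Wt Unstarved (log2 fold change 0.18, SE 0.06, adjusted p = 0.0226, edgeR). The calls of Ndufs1 and Sdha held under 12 of 18 alternatives each, and that of Uqcrc2 under all 18. A part of the Uqcrc2 gene (19.7%) overlaps Pdzd9 on the opposite strand, and the strand setting of the counting is not given.

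**Figure D2:**
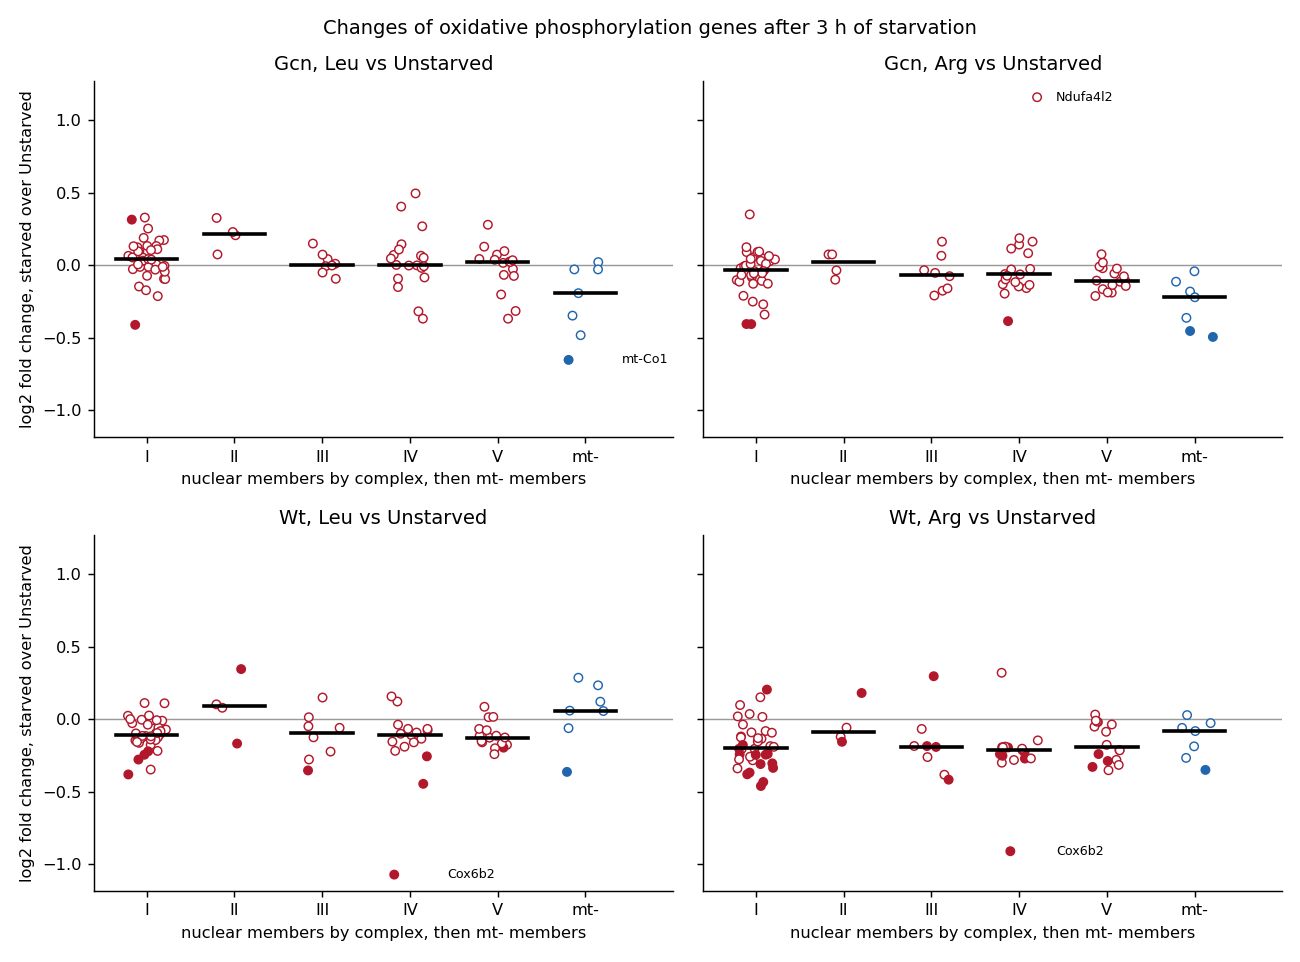
Log2 fold change of each tested member in the starved over the unstarved group, for Gcn (top) and Wt (bottom) cells and for Leu (left) and Arg (right); nuclear members are in red by complex, mt- members in blue, filled where the adjusted p was under 0.05, with black lines at the medians (Atp5s is not drawn). Nuclear medians lie below 0 in every complex in Wt Arg, from -0.09 in II to -0.22 in IV, and the median over all nuclear members was -0.20. In Gcn Arg that median was -0.05, and the medians by complex ran from 0.02 in II to -0.11 in V.

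Leucine starvation of wild-type cells gave fewer calls. Of the 89 members tested, 11 were lower (12.4%, against 14.1% of all genes) and 1 was higher (1.12%, against 15.5% of all genes, where 29.6% were called in all) in Wt Leu than in Wt Unstarved. A fit with the replicate block called 26 lower (against 20.2% of all genes) and 3 higher (against 20.4%), which puts the share called lower above that of all genes. The numbers did not meet the criterion for pairing in this comparison (correlations of 0.0499 to 0.292), but met it for Wt Leu with Wt Arg and for Wt Arg with Wt Unstarved. The median was -0.11 over 82 nuclear members, of which 68 were below 0, and 0.06 over 7 mt- members. By complex, 4 of 36 nuclear members fell in I, 1 of 4 in II, 1 of 8 in III, 3 of 17 in IV and 1 of 16 in V. Cox8a, a small complex IV subunit, had 153, 145 and 135 CPM in Wt Leu and 189 to 201 CPM in Wt Unstarved (log2 fold change -0.45, SE 0.08, adjusted p = 0.000554, edgeR). Uqcrh (-0.35), Ndufa5 (-0.38) and Ndufb7 (-0.28), a membrane-arm subunit of complex I, also fell on the log2 scale (adjusted p = 0.00161, 0.0461 and 0.00344, edgeR). The calls held under 17 of 18 alternatives for Cox8a and Uqcrh, 16 for Ndufb7 and 10 for Ndufa5. Without Wt Leu 3 or Wt Unstarved 1, 6 members were called lower, and without Wt Leu 2, 7. Without Wt Leu 3, 3 were called higher, and without Wt Unstarved 2, 2.

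Sdha was the only member called higher in Wt Leu with all libraries, with 232, 220.3 and 223 CPM in Wt Leu against 185, 171 and 176 CPM in Wt Unstarved. All Wt Leu libraries lay above all unstarved ones (log2 fold change 0.34, SE 0.06, adjusted p = 0.000358, edgeR), and the call held under all 18 alternatives. None of the other complex II genes was called higher: Sdhb, the iron-sulfur subunit, changed by 0.08 (adjusted p = 0.348), the membrane anchor Sdhd by 0.10 (adjusted p = 0.264), and the other anchor, Sdhc, fell by 0.17 on the log2 scale (adjusted p = 0.0292, edgeR). Sdha and Sdhc thus moved in opposite directions. Called lower in both starvations of Wt cells were Atp5g3, Cox6b1, Cox6b2, Ndufa11, Ndufa5, Ndufb10, Ndufb7, Sdhc and Uqcrh, which are 9 of the 11 in Wt Leu and 9 of the 28 in Wt Arg. The 2 comparisons share the Wt Unstarved libraries, and this overlap is not set beside that of all genes. It therefore does not show an excess among the members.

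**Figure D3:**
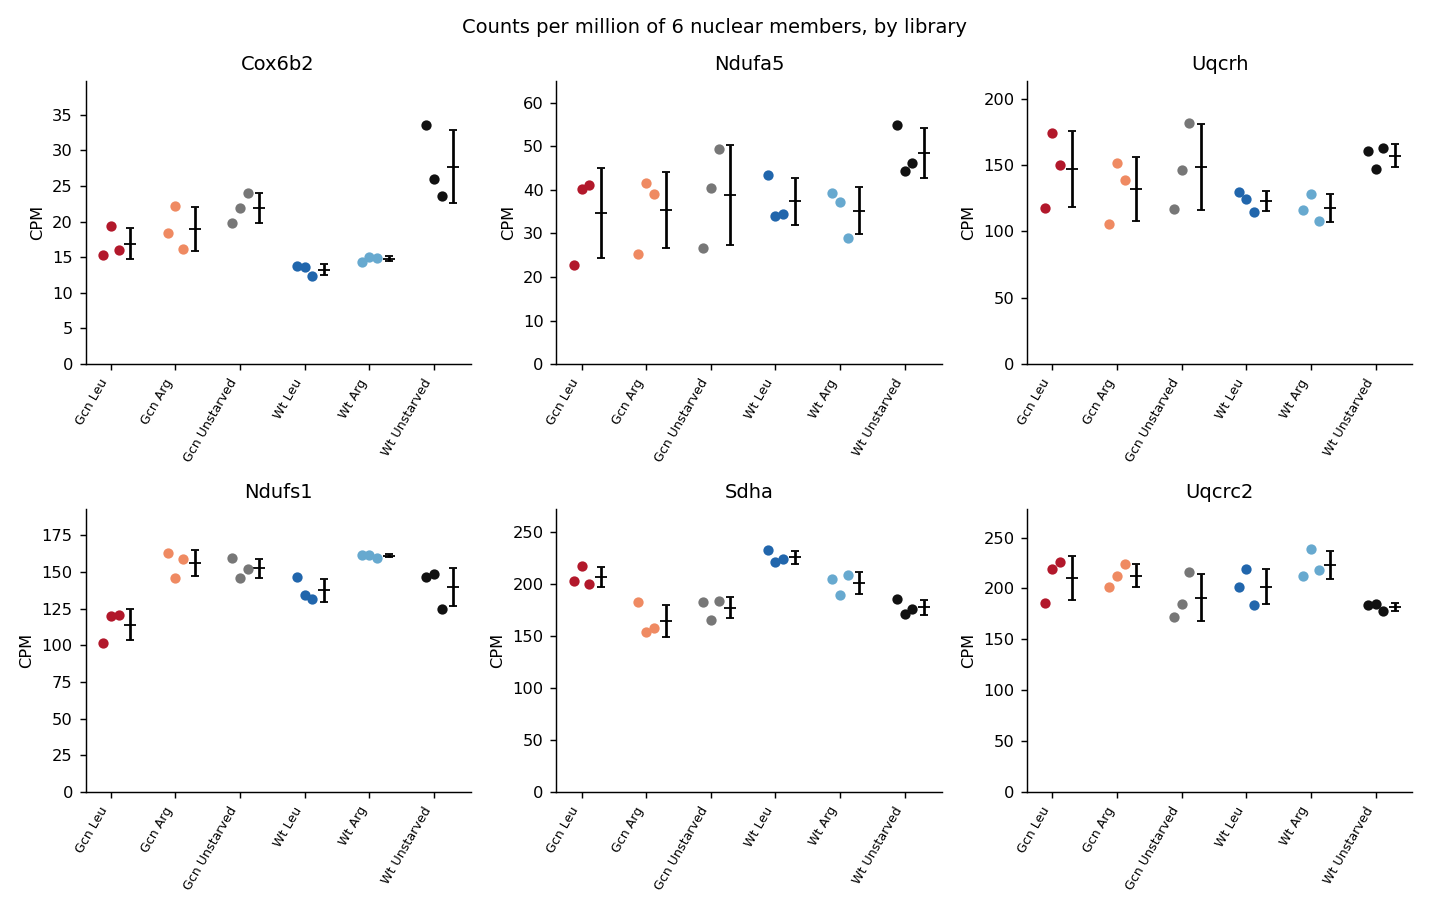
CPM of 6 nuclear members in each library (points) by group, with group means and SD (black bars, n = 3). Cox6b2 lies at 12.3 to 15.0 CPM in the 6 starved Wt libraries and at 23.6 to 33.5 CPM in Wt Unstarved; Ndufa5 and Uqcrh are lowest in replicate 1 of each Gcn group; Ndufs1 is lowest in Gcn Leu and Sdha highest in Wt Leu.

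Promoter sequence is shown for Cox6b2, the member that fell most, and for Ndufa5 and Sdha, which moved in opposite directions and both carry a match to the binding sequence of NRF1, a regulator of respiratory genes. Each window runs from 250 bases before to 50 after the start of the gene in RefSeq (GRCm38.p6), on the minus strand, 5′ to 3′. Capitals mark matches to the NRF1 sequence GCGCANGCG on either strand. The windows are chr7:4753045-4753344 for Cox6b2, chr6:24527477-24527776 for Ndufa5 and chr13:74350191-74350490 for Sdha.
Cox6b2: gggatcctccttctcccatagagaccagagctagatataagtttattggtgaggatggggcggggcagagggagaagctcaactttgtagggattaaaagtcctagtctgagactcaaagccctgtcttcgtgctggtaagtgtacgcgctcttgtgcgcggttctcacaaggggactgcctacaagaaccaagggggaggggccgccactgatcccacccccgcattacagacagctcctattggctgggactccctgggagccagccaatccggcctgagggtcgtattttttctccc
Ndufa5: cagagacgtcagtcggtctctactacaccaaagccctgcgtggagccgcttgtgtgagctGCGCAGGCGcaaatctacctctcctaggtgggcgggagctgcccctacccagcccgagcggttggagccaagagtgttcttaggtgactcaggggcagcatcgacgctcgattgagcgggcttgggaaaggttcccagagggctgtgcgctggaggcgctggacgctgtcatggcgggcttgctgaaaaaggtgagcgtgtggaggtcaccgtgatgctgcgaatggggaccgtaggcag
Sdha: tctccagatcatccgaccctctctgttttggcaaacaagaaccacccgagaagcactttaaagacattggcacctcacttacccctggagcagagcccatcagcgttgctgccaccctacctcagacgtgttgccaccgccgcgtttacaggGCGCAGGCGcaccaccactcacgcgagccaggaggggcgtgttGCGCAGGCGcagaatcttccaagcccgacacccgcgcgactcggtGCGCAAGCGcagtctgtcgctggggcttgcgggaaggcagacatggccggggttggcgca
The Ndufa5 window held 1 match, beginning 190 bases before the start, and the Sdha window held 3, beginning 98, 55 and 10 bases before it, while the Cox6b2 window held 0. Of the 67 nuclear members with a promoter in the table, 20 (29.9%) held the NRF1 sequence, against 6.25% of 32851 promoters of the same length. An ETS sequence, CCGGAAGT, was in 5 members (7.46%, against 3.89% of all), and a YY1 sequence, AAGATGGCG, in 7 (10.4%, against 1.40% of all). TGATGNAA, the element bound by ATF4 downstream of GCN2, was in 0 of the 67, against 3.97% of all promoters. Among the 25 members with a promoter that were called lower in Wt Arg, 8 (32.0%) held the NRF1 sequence, near the share in all 67. A match is a run of letters and was not tested for binding.

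The falls in Wt cells were larger for short transcripts. Among nuclear members with transcripts up to the median of 709 bases the median log2 fold change in Wt Arg was -0.24, and among longer ones -0.12. All tested genes of that short length (1431 genes) had a median of -0.16, against 0.01 for longer genes. In Wt Leu the medians were -0.14 and -0.05 for the shorter and longer members and -0.08 for all short genes. Across nuclear members, Spearman's rho between change and length was 0.61 in Wt Arg and 0.52 in Wt Leu (82 genes, which share libraries and are not independent replicates), and 0.11 in Gcn Arg and 0.10 in Gcn Leu (84 genes).

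Short members also varied between libraries of one group. In the Gcn libraries numbered 1 the short members lay 0.37 (Leu), 0.33 (Arg) and 0.36 (Unstarved) below their group mean in log2 CPM at the median, and the long members 0.13, 0.14 and 0.13 below. In Wt Arg 3 the short members lay 0.20 and in Wt Leu 3 0.14 below. Without the 3 Wt libraries numbered 3, 8 members were called lower in Wt Arg and 3 in Wt Leu, and the nuclear medians were -0.13 and -0.05. With a correction for transcript length, 18 members were called lower in Wt Arg and the nuclear median was -0.12. Without that correction, 28 members and 20.0% of all genes were called lower. The part of length or of these libraries in the falls was not tested further. Leaving out Wt Arg 3 alone gave 14 members called lower in Wt Arg, and leaving out Wt Unstarved 3 gave 16. The counts with length correction or libraries left out are not set beside the share of all genes in the same fits. They therefore do not show an excess over all genes.

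**Figure D4:**
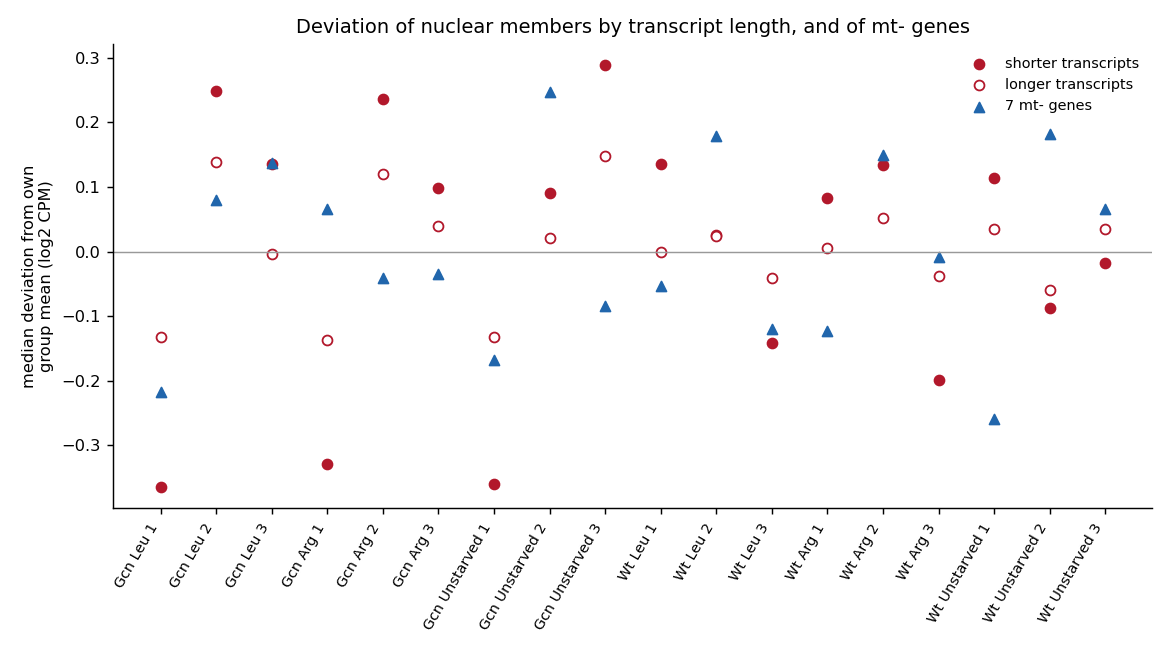
Median deviation in log2 CPM from the mean of its own group, in each library, for nuclear members with shorter (filled) and longer (open) transcripts and for the 7 tested mt- genes (triangles). Short members lie 0.33 to 0.37 below the group mean in the 3 Gcn libraries numbered 1, and the longer members 0.13 to 0.14 below.

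Among the mt- genes, mt-Co1 was lowest with Leu and mt-Nd1 lowest with Arg. mt-Co1, the catalytic core of complex IV, had 5613, 5874 and 7090.2 CPM in Gcn Leu, 8693, 7971 and 8431 CPM in Gcn Arg and 8662, 10943 and 9763 CPM in Gcn Unstarved. In Wt cells it had 7096, 8304 and 6651 CPM in Wt Leu, 8485, 9986 and 9311 CPM in Wt Arg and 8349, 10598 and 9394 CPM in Wt Unstarved. In both genotypes every Leu library lay below every Arg and every Unstarved library. The log2 fold change against Unstarved was -0.65 in Gcn Leu (SE 0.12, adjusted p = 0.00163) and -0.36 in Wt Leu (SE 0.10, adjusted p = 0.00993, edgeR). The first call held under all 18 alternatives and the second under 17 of 18. Against Arg, mt-Co1 was lower by 0.43 in Gcn Leu (adjusted p = 0.0372) and by 0.34 in Wt Leu (adjusted p = 0.0382, edgeR). With Arg the change against Unstarved was -0.22 in Gcn (adjusted p = 0.19) and -0.03 in Wt (adjusted p = 0.845, edgeR). The difference in the Leu change between genotypes did not pass the test (Gcn minus Wt -0.30, SE 0.15, adjusted p = 0.401, edgeR), which does not show that they are equal.

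mt-Nd1, a proton-pumping subunit of complex I encoded upstream on the same strand, was lowest with Arg. It had 3019, 3856 and 3715 CPM in Gcn Leu, 2598, 2775 and 2520.4 CPM in Gcn Arg and 3052, 4253 and 3550.0 CPM in Gcn Unstarved. In Wt cells it had 4067, 4803 and 3844 CPM in Wt Leu, 2800.3, 3419.8 and 2933 CPM in Wt Arg and 3437, 4222 and 4019.8 CPM in Wt Unstarved. In both genotypes every Arg library lay below every Unstarved and every Leu library. With Arg it fell by 0.45 in Gcn (SE 0.13, adjusted p = 0.0198) and by 0.35 in Wt (SE 0.10, adjusted p = 0.0112) on the log2 scale (edgeR). With Leu the change was -0.03 in Gcn (adjusted p = 0.915) and 0.12 in Wt (adjusted p = 0.398, edgeR). Leu against Arg gave 0.42 in Gcn (adjusted p = 0.0628, or 0.0004 with the replicate block) and 0.47 in Wt (adjusted p = 0.00794, edgeR).

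A ratio within a library does not depend on scaling. The log2 ratio of mt-Co1 to mt-Nd1 counts, chosen after their values were seen and so given without a test, was 0.81 ± 0.18 in Gcn Leu, 1.67 ± 0.13 in Gcn Arg and 1.44 ± 0.07 in Gcn Unstarved (SD, n = 3 each). In Wt cells it was 0.79 ± 0.01 in Wt Leu, 1.60 ± 0.06 in Wt Arg and 1.28 ± 0.05 in Wt Unstarved (SD, n = 3 each). In both genotypes the order was Leu, Unstarved, Arg with no overlap between groups. As a share of all mt- member counts, mt-Co1 took 31.1% ± 1.77 in Gcn Leu, 40.4% ± 1.09 in Gcn Arg and 39.3% ± 1.64 in Gcn Unstarved, and 29.9% ± 0.161 in Wt Leu, 39.7% ± 0.632 in Wt Arg and 37.1% ± 1.08 in Wt Unstarved (SD, n = 3 each). The share in Leu lay below that of Arg and Unstarved in every library of both genotypes.

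**Figure D5:**
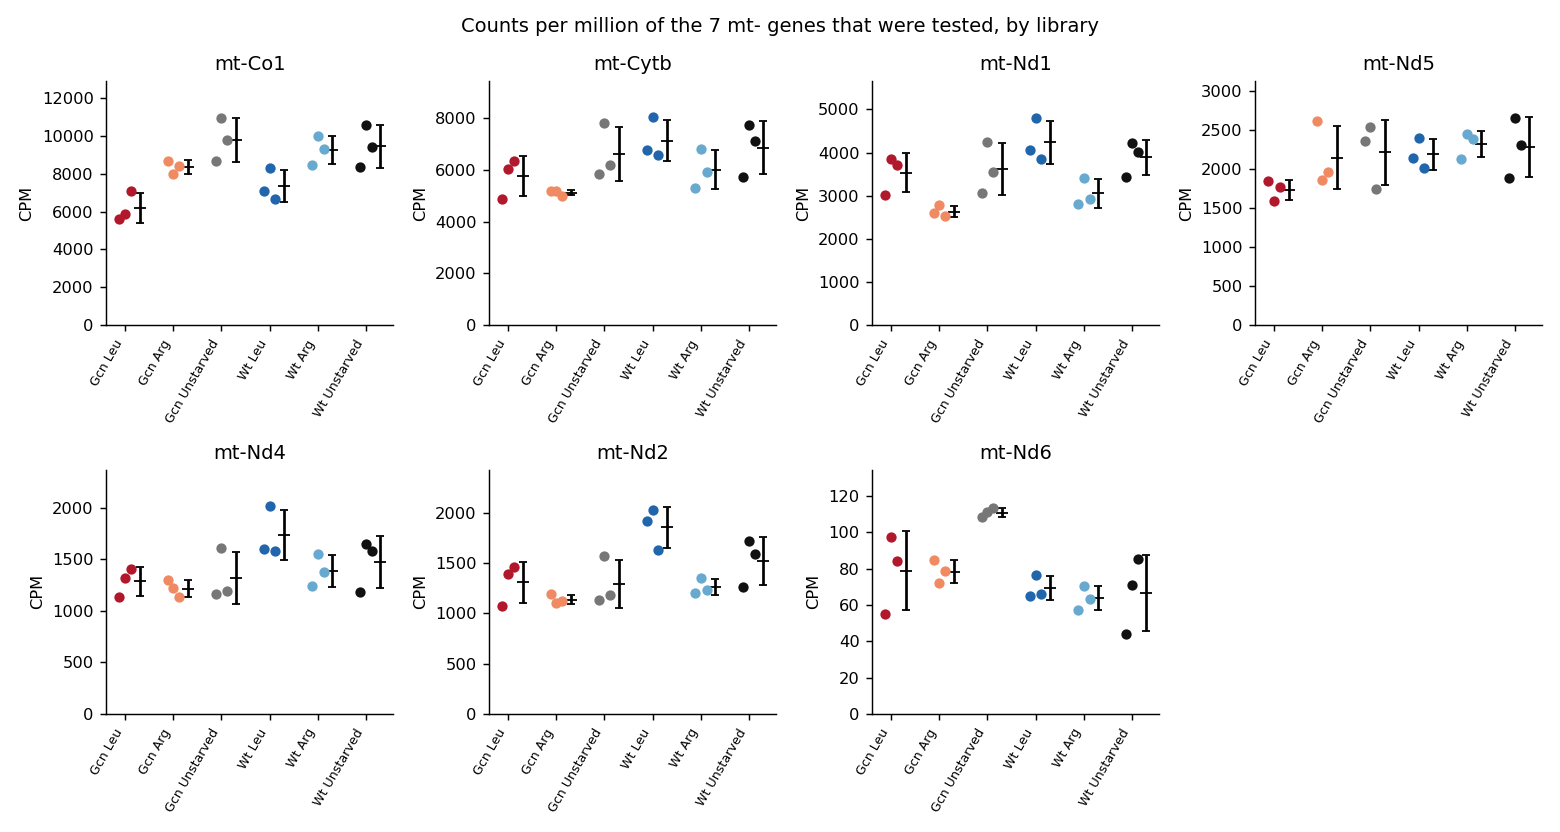
CPM of the 7 tested mt- genes in each library (points) by group, with group means and SD (black bars, n = 3). Within each genotype mt-Co1 is lowest in the Leu group (5613 to 8304 CPM over both) and mt-Nd1 in the Arg group (2520 to 3420 CPM over both); mt-Nd6 is highest in Gcn Unstarved (108 to 113 CPM).

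mt-Nd2, a second complex I pump subunit, was higher in Wt Leu than in Wt Arg with 1916, 2026 and 1632 CPM in Wt Leu and 1205, 1351 and 1236 CPM in Wt Arg (log2 fold change 0.55, SE 0.11, adjusted p = 0.00698, edgeR). Against Wt Unstarved its change did not pass in either direction (0.29 in Wt Leu and -0.27 in Wt Arg, adjusted p = 0.0674 and 0.0681, edgeR). mt-Cytb, the haem-carrying core of complex III, changed by -0.36 in Gcn Arg (adjusted p = 0.0527, edgeR) and by -0.19, 0.06 and -0.19 in Gcn Leu, Wt Leu and Wt Arg, none of which passed. With the replicate block the adjusted p of mt-Cytb was 0.0111 in Gcn Arg and 0.0121 in Wt Arg (edgeR). mt-Nd4 and mt-Nd5 passed in 0 of the 9 comparisons. The Wt Arg change of mt-Nd5 was 0.03, but -0.22 and called (adjusted p = 0.00496, edgeR) with a replicate block and a correction for GC content. GC correction alone moved the mt- median in Wt Arg to -0.38.

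mt-Nd6 is the only protein gene on the light strand of mtDNA. It had 54.8, 97.4 and 84.0 CPM in Gcn Leu, 84.4, 71.9 and 78.6 CPM in Gcn Arg and 108, 111 and 113 CPM in Gcn Unstarved. In Wt cells it had 64.7, 76.7 and 66.2 CPM in Wt Leu, 57.4, 70.4 and 63.1 CPM in Wt Arg and 44.1, 70.7 and 85.2 CPM in Wt Unstarved. Gcn Unstarved lay above Wt Unstarved in all libraries (log2 fold change 0.74, SE 0.21, adjusted p = 0.0135, edgeR). Gcn Arg lay below Gcn Unstarved in all libraries (log2 fold change -0.49, SE 0.17, adjusted p = 0.046, edgeR), but with the replicate block the adjusted p was 0.0591. The call between genotypes held under 14 of 15 alternatives and the Gcn Arg call under 8 of 18. A ribosomal RNA of mtDNA, mt-Rnr1, fell in all 4 comparisons, with log2 fold changes of -1.04, -0.72, -0.77 and -0.67 in Gcn Leu, Gcn Arg, Wt Leu and Wt Arg (adjusted p = 0.000117, 0.00097, 0.00323 and 0.00446, edgeR). It was the 1 gene called lower in each, of 6 tested in a list of mtDNA ribosomal RNAs and nuclear copies of mtDNA. In Wt Leu 1 gene of that list was higher. The libraries were made from poly(A) mRNA, and the part of this in ribosomal RNA counts was not tested.

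In cells without GCN2, few nuclear members changed with arginine starvation. In Gcn Arg, 5 of 91 members fell (5.49%, against 13.7% of all genes) and 0 rose (against 14.3% of all genes, where 28.0% were called in all; 9 members had an unadjusted p under 0.05, and DESeq2 called 0 higher and 6 lower). Blocked by replicate number, 15 fell (against 24.2% of all genes) and 4 rose (against 22.3%). The nuclear median was -0.05, or 0.06 when libraries were scaled by total counts alone, where the median of all genes was 0.11, against -0.01, and 57 of 84 nuclear members were below 0. Ndufs7, which carries the last iron-sulfur cluster before ubiquinone in complex I, had 43.0, 51.3 and 46.7 CPM in Gcn Arg and 57.0, 65.1 and 65.7 CPM in Gcn Unstarved (log2 fold change -0.40, SE 0.10, adjusted p = 0.00889, edgeR). Ndufb5, a membrane-arm subunit, had 74.4, 86.6 and 86.5 CPM in Gcn Arg and 87.2, 113 and 129 CPM in Gcn Unstarved (log2 fold change -0.40, SE 0.14, adjusted p = 0.0431, edgeR). Cox7a2l, which joins complexes III and IV, had 53.7, 61.9 and 59.3 CPM in Gcn Arg and 68.5, 75.7 and 85.5 CPM in Gcn Unstarved (log2 fold change -0.38, SE 0.10, adjusted p = 0.0134, edgeR). In all 3 genes the groups did not overlap, and the calls held under 18 of 18 alternatives for Ndufs7, 15 for Cox7a2l and 12 for Ndufb5. With scaling by library size the calls of Cox7a2l, Ndufb5, mt-Nd1 and mt-Nd6 were lost. Ndufb5 also lost its call without any 1 of the Gcn Arg libraries, Gcn Unstarved 2 or Gcn Unstarved 3, and Cox7a2l without Gcn Arg 1 or Gcn Unstarved 3. All 3 also fell in Wt Arg, with log2 fold changes of -0.31, -0.18 and -0.20 (adjusted p = 0.00612, 0.0294 and 0.0304, edgeR). The mt- members that fell were mt-Nd1 and mt-Nd6. Leaving out 1 Gcn Arg or Gcn Unstarved library changed the number called lower to 2 or 3, except that it was 8 without Gcn Unstarved 1, and 1 was called higher without Gcn Arg 1 or Gcn Unstarved 3. The nuclear median was 0.08 without Gcn Arg 1 and 0.06 without Gcn Unstarved 3. Ndufb5 overlaps Mrpl47 on the opposite strand over 12.3% of its exons.

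In Gcn Leu, 2 of 91 members fell (2.20%, against 10.0% of all genes) and 1 rose (1.10%, against 11.7% of all genes, where 21.8% were called in all). With the replicate block 7 fell (against 20.2% of all genes) and 10 rose (against 20.5%). Ndufs1 had 102, 119.8 and 121 CPM in Gcn Leu and 159, 146 and 152 CPM in Gcn Unstarved (log2 fold change -0.41, SE 0.09, adjusted p = 0.00635, edgeR), and the call held under all 18 alternatives. Ndufv1, which binds NADH and passes its electrons on within the same arm, moved the other way, with 195, 205 and 178 CPM in Gcn Leu and 146, 148 and 172 CPM in Gcn Unstarved (log2 fold change 0.32, SE 0.10, adjusted p = 0.0323, edgeR). Every Gcn Leu library lay below the unstarved ones for Ndufs1 and above them for Ndufv1. The second gene that fell was mt-Co1. The 4 complex II genes had a median of 0.22 with none below 0 and none called without the block. The call of Ndufv1 held under 13 of 18 alternatives. It was lost without any 1 of Gcn Leu 1, Gcn Leu 2, Gcn Unstarved 1 or Gcn Unstarved 2 and without the 3 Gcn libraries numbered 1. Without Gcn Leu 1, 2 other members were called higher. The number called lower was 4 without Gcn Leu 2 and 5 without Gcn Unstarved 1.

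Leucine and arginine starvation were also set against each other. In Gcn cells 2 members were higher with Leu than with Arg (2.20%, against 4.64% of all genes) and 3 were lower (3.30%, against 3.88% of all genes, where 8.52% were called in all), and with the replicate block 18 were higher (against 14.4% of all genes) and 6 lower (against 12.3%). In Wt cells 5 were higher (5.62%, against 5.25% of all genes) and 2 lower (2.25%, against 4.76% of all genes, where 10.0% were called in all), and with the block 14 were higher (against 10.6%) and 4 lower (against 9.98%). Ndufs1 was lower with Leu in both genotypes, by 0.45 in Gcn (adjusted p = 0.00836) and 0.23 in Wt (adjusted p = 0.0427, edgeR), as was mt-Co1. In Gcn cells Ndufs7 (0.39, adjusted p = 0.0279) and Sdha (0.33, adjusted p = 0.0302) were higher with Leu and Atp5s was lower, at 4.32, 4.84 and 5.03 CPM in Gcn Leu and 6.45, 7.01 and 6.41 CPM in Gcn Arg (log2 fold change -0.48, SE 0.13, adjusted p = 0.036, edgeR). In Wt cells Ndufa8 (0.32), Sdhd (0.22) and Uqcrc1 (0.20) were higher with Leu (adjusted p = 0.00892, 0.0378 and 0.0272, edgeR). Of 18 alternatives the calls held in 18 (Gcn) and 11 (Wt) for Ndufs1, 13 for Ndufs7, 12 for Sdha, 10 for Atp5s, 16 for Ndufa8 and 11 each for Sdhd and Uqcrc1. Ndufs1 overlaps Ino80dos on the opposite strand over 6.2% of its exons. With 1 library left out, 0 to 3 members were higher and 1 to 3 lower in Gcn, and 3 or 4 higher and 0 or 1 lower in Wt.

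Without starvation the genotypes differed at few members. Gcn Unstarved against Wt Unstarved gave 2 higher (2.20%, against 16.6% of all genes) and 4 lower (4.40%, against 16.2% of all genes, where 32.8% were called in all) of 91. The nuclear median was -0.01 and the mt- median -0.05. Cox6a2, the heart and skeletal muscle form of complex IV subunit VIa, was at 0.435, 0.665 and 1.11 CPM in Gcn Unstarved and 0.268, 0.0825 and 0.186 CPM in Wt Unstarved (log2 fold change 1.98, SE 0.41, adjusted p = 0.000707, edgeR). All Gcn Unstarved libraries lay above all Wt Unstarved ones, at levels near 1 CPM or lower. The 3 muscle markers were at or below 8.10 CPM in sum in every library. One of them, Actn2, was lower in Gcn Unstarved. Ndufa9, a complex I subunit beside the ubiquinone channel, had 134, 159 and 178 CPM in Gcn Unstarved and 193, 188 and 203 CPM in Wt Unstarved (log2 fold change -0.31, SE 0.10, adjusted p = 0.0208, edgeR). Ndufb2 (-0.33, adjusted p = 0.0379) and Ndufc2 (-0.31, adjusted p = 0.0391), both accessory subunits of complex I, and Cox6b2 (-0.34, adjusted p = 0.0399, edgeR) were lower too, and for Cox6b2 the groups overlapped. Of 15 alternatives the calls held in 15 for Cox6a2, 12 for Ndufa9, 10 for Cox6b2 and 9 each for Ndufb2 and Ndufc2. Without Gcn Unstarved 1, 0 members were called lower and 4 higher, without Wt Unstarved 3, 1 was lower, and without Wt Unstarved 1, 2 were. The fibroblast markers were at 6.17 to 8.01 CPM in Gcn Unstarved and 14.8 to 19.2 CPM in Wt Unstarved in sum, with Lum and Dcn at or near 0 in all libraries, and their part in these differences, and that of the higher Gm42418 share in Gcn Unstarved (up to 3.97% in Gcn Unstarved 1), was not tested.

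The change with starvation was compared between genotypes as the Gcn change minus the Wt change. For Arg 1 of 91 members was called higher (1.10%, against 0.62% of all genes) and 0 lower (against 1.68% of all genes, where 2.3% were called in all; 3 members had an unadjusted p under 0.05, and DESeq2 called 1 higher and 0 lower). With the replicate block 7 were higher (against 5.91% of all genes) and 1 lower (against 8.89%). Those higher were Cox6b2, Ndufa12, Uqcr11, Ndufa5, Ndufa8, Ndufc1 and Ndufb6, and Sdha was lower. The one member called without the block was Cox6b2, with 18.5, 22.2 and 16.2 CPM in Gcn Arg and 19.8, 21.9 and 24.0 CPM in Gcn Unstarved, beside its fall in Wt cells (difference 0.71, SE 0.18, adjusted p = 0.0379, edgeR). The Gcn groups overlapped and the change in Gcn Arg did not pass (-0.19, adjusted p = 0.311, edgeR). The difference held under 12 of 23 alternatives, with values of 0.55 to 0.81, and was lost without any 1 of Wt Arg 1, 2 or 3, Wt Unstarved 1, Gcn Arg 2, Gcn Unstarved 1 or Gcn Unstarved 2. For Leu 0 members were called in either direction (0.154% of all genes were higher and 0.668% lower, 0.821% in all; 2 members had an unadjusted p under 0.05, and DESeq2 called 1 in each direction). In the blocked fit 6 were higher (against 4.43% of all genes) and 1 lower (against 6.67%): Cox6b2, Cox8a, Atp5k, Ndufb7, Atp5g3 and Sdhc, with Ndufs1 lower. Cox6b2 stood at 0.69 (adjusted p = 0.0721, or 0.00457 with the replicate block, edgeR). The medians of the differences were 0.12 for nuclear and -0.11 for mt- members with Arg, and 0.14 and -0.27 with Leu. The smaller number of calls in Gcn cells is not itself a test of a difference between genotypes: without the block that difference passed for 1 member with Arg and 0 with Leu, and with it for 8 and 7. The biological coefficient of variation over all genes was 0.109 in the Gcn fit and 0.0749 in the Wt fit.

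Nuclear members summed to 13758 ± 1712 CPM in Gcn Leu, 12961 ± 1578 in Gcn Arg and 13453 ± 1614 in Gcn Unstarved, and to 12919 ± 456 in Wt Leu, 12546 ± 487 in Wt Arg and 13654 ± 542 in Wt Unstarved (SD, n = 3 each). The mt- members summed to 19884 ± 2143, 20692 ± 832 and 24958 ± 3434 CPM in the Gcn groups and to 24560 ± 2759, 23356 ± 2211 and 25528 ± 3416 CPM in the Wt groups, in the same order. The mean log2 ratio of nuclear to mt- counts was -0.53 ± 0.16 in Gcn Leu, -0.68 ± 0.23 in Gcn Arg and -0.89 ± 0.20 in Gcn Unstarved, and -0.92 ± 0.13, -0.89 ± 0.14 and -0.89 ± 0.25 in Wt Leu, Wt Arg and Wt Unstarved (SD, n = 3 each). The Wt groups differed in this ratio by less than their SD. The 4 complex II genes summed to 746 to 845 CPM in Gcn Leu, against 653 to 710.2 CPM in Gcn Unstarved, and to 709 to 731 CPM in Wt Leu, against 648 to 679 CPM in Wt Unstarved. In both genotypes the Leu and Unstarved libraries did not overlap. This sum was chosen after its values were seen and was not tested.

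Isoforms known from restricted tissues were low apart from Cox6b2. Mean levels over 18 libraries were 2.98 CPM for Cox7a1 and 0.49 CPM for Cox6a2 (heart and skeletal muscle forms), 1.37 CPM for Cox4i2 (a lung form), 0.41 CPM for Cox7b2 and 0.26 CPM for Cox8c (a testis form). Cox8b, another muscle form, held 1 count in all. Ndufa4l2, a form of Ndufa4 induced by hypoxia, averaged 1.60 CPM and reached 6.37 CPM in Gcn Arg 1, with 1.51 and 1.55 CPM in the other Gcn Arg libraries. Its changes did not pass in any comparison without the block (1.16, SE 0.86, adjusted p = 0.372 in Gcn Arg, or 0.000479 with the replicate block, edgeR). The second identifier named Atp5o lies inside Donson and had 0 counts.

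Genes that assemble the complexes moved in both directions. Of 15 complex I assembly genes, 3 rose in Gcn Leu, 4 in Gcn Arg, 2 in Wt Leu and 4 in Wt Arg, and 4 fell in Wt Arg. Of all genes, 11.7%, 14.3%, 15.5% and 20.9% were called higher in these comparisons and 10.0%, 13.7%, 14.1% and 20.0% lower. The numbers that rose in Wt Leu and Wt Arg lie near these shares. The list's medians were 0.11, 0.05, 0.02 and -0.01 in that order. Tmem126b, a factor for the membrane arm of complex I, rose in all 4 comparisons, to 80.5 ± 13.9 CPM in Gcn Leu and 111 ± 16.5 CPM in Gcn Arg, against 40.2 ± 3.31 CPM in Gcn Unstarved, and to 55.7 ± 3.20 CPM in Wt Leu and 75.4 ± 7.79 CPM in Wt Arg, against 31.7 ± 2.17 CPM in Wt Unstarved (SD, n = 3 each). Its log2 fold changes were 1.01, 1.47, 0.81 and 1.25 (adjusted p = 0.000392, 1.56e-05, 1.98e-06 and 5.95e-09, edgeR). Lyrm2, another complex I factor, rose by 0.63, 0.70, 0.44 and 0.45 (adjusted p = 0.00484, 0.0021, 0.0107 and 0.00566, edgeR).

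Of the assembly genes of complexes II to V (33 tested in Gcn and 32 in Wt), 6 rose and 1 fell in Gcn Leu, 9 rose and 1 fell in Gcn Arg, 4 rose and 2 fell in Wt Leu, and 5 rose and 4 fell in Wt Arg. The number that rose lay above the share of all genes in Gcn Leu and Gcn Arg (11.7% and 14.3%) and below it in Wt Leu and Wt Arg (15.5% and 20.9%). The list's medians were 0.15, 0.10, 0.03 and -0.01 in that order, with medians over all genes between -0.01 and 0.01. Coa4, a complex IV factor of the intermembrane space, rose in all 4, by 0.84, 0.87, 0.68 and 0.61 on the log2 scale (adjusted p = 0.00036, 0.000186, 0.00014 and 0.000194, edgeR). Tmem70, needed to assemble ATP synthase, rose with Arg by 0.73 in Gcn (adjusted p = 4.12e-05) and 0.57 in Wt (adjusted p = 1.01e-05, edgeR). It was lower with Leu than with Arg in both genotypes, by 0.71 in Gcn (adjusted p = 0.000296) and 0.56 in Wt (adjusted p = 0.000108, edgeR). In Wt Arg, Coa3 (-0.37) and Cox19 (-0.34), both for complex IV, fell (adjusted p = 0.00561 and 0.0051, edgeR).

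Among 20 genes of ubiquinone synthesis and electron carriers, 6 rose in Gcn Leu, 4 rose and 1 fell in Gcn Arg, 3 rose and 1 fell in Wt Leu, and 4 rose and 1 fell in Wt Arg. The 3 and 4 that rose in Wt Leu and Wt Arg lie near the 15.5% and 20.9% of all genes, and the 6 in Gcn Leu above 11.7%. The list's medians were 0.12, 0.16, 0.06 and -0.0017 in that order. Coq8a, a kinase-like protein of ubiquinone synthesis, rose by 0.93, 0.89, 0.84 and 0.85 in Gcn Leu, Gcn Arg, Wt Leu and Wt Arg, and Coq10a, a ubiquinone-binding protein, by 0.70, 1.00, 0.39 and 0.64 (adjusted p of 1.03e-06 to 0.0102, edgeR). Coq9 rose by 0.63 in Gcn Arg (adjusted p = 0.000412), and this differed from the change in Wt Arg (difference 0.49, adjusted p = 0.0415, edgeR). Cycs, cytochrome c, fell by 0.25 in Wt Arg (adjusted p = 0.0227, edgeR). Of 15 genes of the tricarboxylic acid cycle, 2 fell in Gcn Leu, 2 in Gcn Arg, 3 in Wt Leu and 3 in Wt Arg, and 0, 0, 1 and 3 rose. The numbers that fell lie within 1 gene of those given by the shares of all genes (10.0%, 13.7%, 14.1% and 20.0%). Its medians were 0.02, -0.05, 0.05 and 0.05 in that order. Cs, citrate synthase, fell by 0.43 in Gcn Arg (adjusted p = 0.00161), with a difference from Wt Arg of -0.39 (adjusted p = 0.0294, edgeR).

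Of 16 RNA-processing genes, 0 were called in Gcn Leu, 1 rose and 4 fell in Gcn Arg, 1 rose and 2 fell in Wt Leu, and 5 rose and 5 fell in Wt Arg, with medians of -0.17, -0.06, -0.05 and -0.10. Of all genes 10.0%, 13.7%, 14.1% and 20.0% were lower, so that 2 of 16 in Wt Leu lies near the share of all genes and 4 and 5 of 16 with Arg above it. Of all genes 11.7%, 14.3%, 15.5% and 20.9% were higher. The 5 of 16 that rose in Wt Arg also lie above that share, and the numbers that rose in the other comparisons lie below it. Grsf1, an RNA-binding protein of mitochondrial RNA granules, was at 112 ± 2.69 CPM in Gcn Leu, 55.5 ± 4.59 CPM in Gcn Arg and 108 ± 5.12 CPM in Gcn Unstarved, and at 110.4 ± 1.48 CPM in Wt Leu, 74.3 ± 1.93 CPM in Wt Arg and 107 ± 5.05 CPM in Wt Unstarved (SD, n = 3 each). It fell with Arg by 0.95 in Gcn (adjusted p = 3.49e-06) and 0.53 in Wt (adjusted p = 2.69e-06), and the fall was larger in Gcn (difference -0.43, adjusted p = 0.0204, edgeR). Fastkd5, which processes precursor transcripts of mtDNA, fell with Arg by 0.78 in Gcn and 0.64 in Wt (adjusted p = 0.00119 and 0.000634, edgeR). Of 16 genes of mtDNA transcription and upkeep, Mgme1, a mitochondrial exonuclease, rose in all 4 comparisons by 0.91, 0.77, 0.66 and 0.69 (adjusted p of 1.9e-07 to 3.23e-05, edgeR). Tfb2m, a transcription initiation factor of mtDNA, fell by 0.70 in Gcn Leu and 0.63 in Gcn Arg (adjusted p = 0.00136 and 0.00224, edgeR). In that list 1 rose and 1 fell in Gcn Leu, 3 and 2 in Gcn Arg, 2 and 2 in Wt Leu, and 4 and 4 in Wt Arg, with medians of -0.02, 0.07, -0.08 and 0.06. Each of these counts lies within 1 gene of the number that the share of all genes would give.

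Many nuclear regulators of respiratory genes fell. Of 12 tested, 5 fell in Gcn Leu, 9 in Gcn Arg, 7 in Wt Leu and 7 in Wt Arg, and 0, 0, 1 and 2 rose. Of all genes 10.0%, 13.7%, 14.1% and 20.0% were called lower. The list's medians were -0.23, -0.37, -0.24 and -0.31, with medians over all genes between -0.01 and 0.01. Myc fell by 0.63, 1.00, 0.43 and 0.80 in these comparisons in that order (adjusted p = 0.000138, 2.32e-06, 4.92e-05 and 3.34e-08, edgeR). Esrra, the nuclear receptor ERR alpha, fell by 0.69 in Gcn Arg, 0.47 in Wt Leu and 0.75 in Wt Arg (adjusted p = 0.000407, 0.00035 and 1.85e-06, edgeR). Pprc1 and Ppargc1b, coactivators of the PGC-1 family, fell in Gcn Arg by 0.82 and 0.83 (adjusted p = 0.000348 and 0.00257, edgeR), and for Ppargc1b the Arg change differed between genotypes (-0.95, adjusted p = 0.0336, edgeR). Nrip1, a corepressor of nuclear receptors, rose by 0.58 in Wt Leu and 0.85 in Wt Arg (adjusted p = 0.00209 and 3.17e-05, edgeR).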

How the data were processed

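Per the labels' protocols, poly(A) mRNA from 1 µg of total RNA was made into directional NEBNext libraries and sequenced as 43-base paired reads. Per the submitters' processing notes, reads were handled with bcl2fastq, FastQC 0.11.7, STAR 2.7.4a, HTSeq, DESeq 1.30.1, DESeq2 and R 4.0.3 on GRCm38. The deposited values used here are raw counts per gene, made by the authors, in 1 table of 9 libraries for each genotype. Normalized tables from the authors, whose signal is the count divided by a size factor, were not used in tests. Neither the strand setting nor the treatment of multiply mapped reads is given in the sources used here.

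Counts were fitted with edgeR 4.0.16 (R 4.3.3; filterByExpr, TMM scaling, robust quasi-likelihood) within each genotype, over the 3 groups, and over all 6 groups for genotype and interaction terms. P-values were Benjamini-Hochberg adjusted over all genes tested, with calls made below 0.05. SE was obtained from the log2 fold change and the F statistic. CPM used total counts scaled by TMM factors over the 18 libraries, and log2 deviations used a pseudocount of 0.5 CPM. The fits were run on simulated negative binomial counts. These held no structure by replicate number or transcript length, so the behaviour of the fits under such structure was not tested. Identical libraries were not found (0 pairs), and 0 value columns were left unmapped.

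The members and lists were chosen with earlier results of these data known. Members named in the text were up to 6 per direction and comparison by size of log2 fold change among those called. Restricted isoforms, complex leaders, interaction members and mt- genes were named whether or not they were called, and Cox6b1, Sdhb, Sdhc and the values used for contrast were chosen after their values were seen. Symbols came from GENCODE vM21, and 241 identifiers had none. The shared words of the mt- genes are those of 43 bases found, on either strand, in the GENCODE vM21 transcripts of other genes. Genome sequence outside annotated transcripts was not searched. The pairing of replicate numbers was checked by correlating deviations from group means. Same-numbered libraries correlated at 0.155 to 0.302 in Wt Arg with Wt Unstarved, 0.285 to 0.409 in Wt Leu with Wt Arg, 0.262 to 0.619 in Gcn Arg with Gcn Unstarved, 0.26 to 0.625 in Gcn Leu with Gcn Unstarved and 0.483 to 0.643 in Gcn Leu with Gcn Arg, so blocked counts stand beside these results. Alternatives were DESeq2 1.42.0, library size or nuclear-only scaling, no filter, a replicate block, corrections for GC content and transcript length, other sets of groups, and libraries left out.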

Additional observations from a re-analysis of the deposited data

Results flagged for a closer look

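The change of Cox6b2 with Arg differed between genotypes, with a Gcn change minus Wt change of 0.71 on the log2 scale (edgeR quasi-likelihood, adjusted p = 0.0379). The Gcn Arg and Gcn Unstarved libraries overlapped, while 3 of 3 Wt Arg libraries lay below every Wt Unstarved library. Gcn Unstarved libraries ranged from 19.8 to 24.0 CPM and Wt Unstarved libraries from 23.6 to 33.5 CPM. Over 23 alternatives the adjusted p ranged from 0.0013 to 0.14 and the difference passed in 12.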

How the results depend on the processing

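Counts are given as members called higher and lower. Shares of all genes are given above for the main and blocked fits only. The other counts therefore show neither an excess nor a lack against all genes. The called members named by size of change kept their direction under every alternative run. Among these and the mt- genes, 1 value reversed with a call. It was mt-Nd5 in Wt Arg, at -0.22 with replicate block and GC correction. In 88 further values under an alternative the sign changed, with no call in either fit. The cause of the changes listed here was not tested. With the replicate block the counts were 4 and 46 in Wt Arg, 3 and 26 in Wt Leu, 14 and 4 for Leu against Arg in Wt, 4 and 15 in Gcn Arg, 10 and 7 in Gcn Leu, 18 and 6 for Leu against Arg in Gcn, 7 and 1 for the Arg interaction and 6 and 1 for the Leu interaction. Same-numbered libraries correlated at 0.0499 to 0.292 in Wt Leu with Wt Unstarved and at -0.209 to 0.0533 across genotypes, so the numbers were not taken to pair these. Adding GC correction to the block gave 7 and 55 in Wt Arg, 3 and 28 in Wt Leu, 13 and 4 for Leu against Arg in Wt, 4 and 21 in Gcn Arg, 9 and 12 in Gcn Leu, 18 and 7 for Leu against Arg in Gcn, and 6 and 1 and 5 and 1 for the Arg and Leu interactions.

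Without the 3 Wt libraries numbered 3, counts were 1 and 8 in Wt Arg, 3 lower in Wt Leu, 1 and 1 for Leu against Arg in Wt, 1 lower for Gcn against Wt and 0 for the Arg interaction. Without the 3 Gcn libraries numbered 1 they were 1 and 8 in Gcn Arg, 2 higher in Gcn Leu, 4 and 1 for Leu against Arg in Gcn, 8 and 1 for Gcn against Wt and 0 for the Arg interaction. Fitting all 6 groups together gave 1 and 10 in Wt Arg, 2 lower in Wt Leu, 2 and 0 for Leu against Arg in Wt, 1 higher in Gcn Arg, 4 and 4 in Gcn Leu and 8 higher for Leu against Arg in Gcn. Fitting only the 2 groups compared gave 0 higher for Leu against Arg in Gcn.

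Length correction gave 18 lower in Wt Arg, 2 higher in Wt Leu, 4 lower for Leu against Arg in Wt, 1 and 11 in Gcn Arg, 2 and 5 in Gcn Leu, 8 higher for Leu against Arg in Gcn, 6 higher for Gcn against Wt and 0 for the Arg interaction. With the block as well it gave 6 and 20 in Wt Leu, 12 and 6 for Leu against Arg in Wt, 4 and 24 in Gcn Arg, 10 and 11 in Gcn Leu, 26 and 6 for Leu against Arg in Gcn, 2 and 5 for the Arg interaction and 13 and 2 for the Leu interaction. GC correction alone gave 2 higher in Wt Leu, 4 lower in Gcn Leu, 5 and 7 for Gcn against Wt and 0 for the Arg interaction. Scaling by library size gave 2 higher in Wt Leu, 2 and 1 in Gcn Arg, 5 higher in Gcn Leu, 1 higher for Leu against Arg in Gcn and 1 for the Leu interaction, and put the mt- sum in Gcn Arg at 21604 CPM. DESeq2 gave 2 higher in Wt Leu, 4 lower in Gcn Leu, 4 higher for Leu against Arg in Gcn and 1 and 1 for the Leu interaction. Without a filter there were 2 higher in Wt Leu, 1 and 9 in Gcn Arg, 3 and 7 in Gcn Leu, 6 higher for Leu against Arg in Gcn and 1 for the Leu interaction.

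Leaving out 1 library gave 1 to 3 higher and 14 to 33 lower in Wt Arg, 1 to 3 and 6 to 16 in Wt Leu, 3 to 4 and 0 to 1 for Leu against Arg in Wt, 0 to 1 and 2 to 8 in Gcn Arg, 0 to 2 and 2 to 5 in Gcn Leu, 0 to 3 and 1 to 3 for Leu against Arg in Gcn, 2 to 4 and 0 to 5 for Gcn against Wt, 0 to 1 higher for the Arg interaction and 0 in both directions for the Leu interaction. Of the 28 members called lower in Wt Arg, all 28 were also called with the block and with DESeq2, 18 with length correction and 8 without the 3 Wt libraries numbered 3.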
